A study of Mus musculus with 8 samples.

Results

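Fibroblasts of the mouse optic nerve (ON) that express *Adamtsl3* were examined in single-nucleus RNA counts. A nucleus was taken as a fibroblast when its barcode had at least 1000 unique molecular identifiers (UMIs, each standing for 1 captured RNA molecule), less than 5% of them from mitochondrial genes, UMIs of at least 4 of the 8 genes *Dcn*, *Col1a1*, *Col1a2*, *Bnc2*, *Trpm3*, *Sdk1*, *Ranbp3l* and *Cdh11*, fewer than 3 UMIs of *St18* and fewer than 3 of *Aqp4* and *Slc1a2* together. Of 40845 barcodes that passed the UMI and mitochondrial limits in all libraries, 2949 were fibroblasts, and 715 of these were selected on their measured *Adamtsl3* count, by at least 2 UMIs. These 715 nuclei are called *Adamtsl3*-positive fibroblasts here, and the 2100 fibroblasts without a UMI of *Adamtsl3* are called *Adamtsl3*-negative. The 134 fibroblasts with exactly 1 UMI belong to neither group.

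ONs of female C57BL/6J mice at P120 were profiled in 8 libraries, each made from 6 ONs of 3 mice pooled before nuclei were isolated. Replicates 1 to 4 are labelled *Piezo2*f/f control, without cre. Replicates 10 to 13 are labelled *Olig2-cre;Piezo2*f/f cKO. Both genotypes carry *Piezo2* alleles with floxed exons, and the cre is knocked into the *Olig2* gene, so that the cKO mice keep 1 intact copy of *Olig2* in every cell. No group with *Olig2-cre* alone was sequenced, so an effect of the deletion and of the missing *Olig2* copy cannot be told apart. *Olig2* marks the oligodendrocyte (OL) lineage, and the cross is aimed at that lineage, not at fibroblasts.

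*Adamtsl3* encodes a secreted glycoprotein related to the ADAMTS metalloproteases, without a protease domain of its own. Fibroblasts of the ON lie mainly in the meninges that sheathe the nerve, where they produce collagens, proteoglycans and the basement membrane under the pia, and where they release retinoic acid, WNT and BMP signals. Cells of the arachnoid barrier in the same sheath are joined by E-cadherin and tight junctions, and carry efflux pumps and solute carriers that keep the subarachnoid fluid apart from the blood.

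Total UMIs per library ranged from 39628926 to 56541132 over all barcodes, and the 715 *Adamtsl3*-positive fibroblasts had 715 distinct barcode sequences, none of them in the *Adamtsl3*-positive fibroblasts of another library. Levels are given as CPM, a gene's UMIs per 1000000 UMIs of the summed nuclei of a library. The gene targeted by the cross was checked first, in OLs. *Piezo2* was at 467, 374, 367 and 459 CPM in the OLs of the control libraries and at 512, 498, 542 and 497 CPM in those of the libraries labelled cKO. *Piezo2* counts in OLs were thus higher in all 4 libraries labelled cKO (two-sided exact permutation p = 0.0286, which is as low as 4 libraries against 4 can reach). *Olig2* was at 31.9 ± 6.64 CPM in control OLs and 49.4 ± 5.08 CPM in OLs labelled cKO (SD, n = 4; exact permutation test, p = 0.0286). Without any 1 control library p stayed at 0.0286 for both genes. Without any 1 of the libraries labelled cKO it was between 0.0571 and 0.0857 (exact permutation tests), while the differences were still 85.5 to 101 CPM for *Piezo2* and 15.5 to 19.3 CPM for *Olig2*, against 95.5 and 17.5 CPM over all 8 libraries. Neither gene was thus lower with the cKO label, and the cause was not tested. A count over the whole *Piezo2* gene can include transcripts that lack the floxed exons, and such transcripts were not counted apart. The floxed exons are not part of *Olig2*, and transcripts of its allele with cre were not counted apart either. Every direction by genotype below refers to libraries by their labels.

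*Adamtsl3*-positive fibroblasts were found in every library, as 54, 57, 127 and 81 nuclei of the control libraries and 62, 93, 114 and 127 nuclei of the libraries labelled cKO. They made up 17.4%, 26.9%, 24.7% and 29.1% of the fibroblasts of the control libraries and 23.7%, 21.0%, 34.1% and 21.3% in the libraries labelled cKO. The 2 genotypes overlapped, with the lowest share in control replicate 1 and the highest in cKO replicate 12. The mean share was 24.5% ± 5.08 in control and 25.0% ± 6.18 in cKO libraries (SD, n = 4), a difference of 0.51 percentage points (exact permutation test, two-sided, p = 0.914). With *Adamtsl3* read after thinning every fibroblast to 1000 UMIs, and the fibroblasts still chosen at full depth, the shares were 15.2% ± 2.49 and 16% ± 5.56 (exact permutation test, p = 0.857). Of all barcodes, *Adamtsl3*-positive fibroblasts were 1.83% ± 0.797 in control and 1.79% ± 0.631 in cKO libraries (exact permutation test, p = 0.971). A difference of a few percentage points between genotypes could not have been seen against this spread between libraries.

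**Figure D1:**
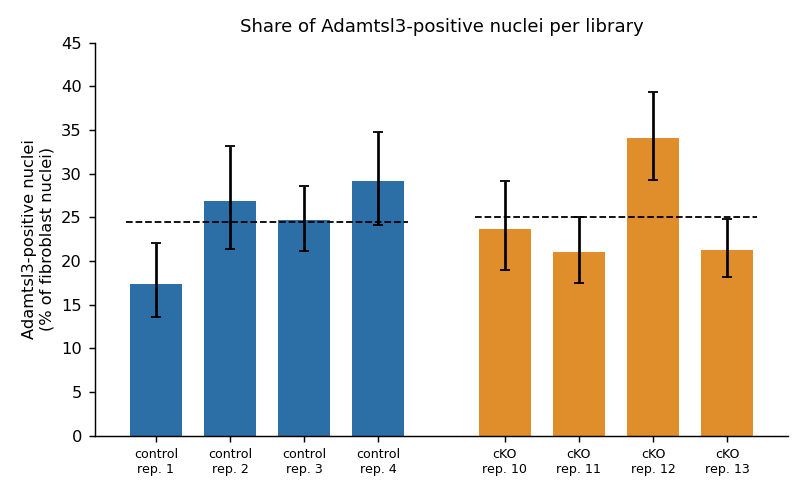
*Adamtsl3*-positive nuclei as a percentage of the fibroblast nuclei of each library, with 95% Wilson intervals that cover counting error only and dashed lines at the mean of each genotype. The shares lie between 17.4% and 34.1%, and the means of control (24.5%) and cKO (25.0%) libraries are close to each other.

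The number of *Adamtsl3* UMIs in these nuclei ranged from 2 to 187 with a median of 10. It was 2 in 60 nuclei, 3 in 56 and at least 4 in 599. As background, a UMI of *Adamtsl3* was found in 8.92% ± 1.76 of OLs and 4.11% ± 0.980 of astrocytes (SD, n = 8 libraries), at median depths of 2963 and 3326 UMIs per nucleus, and at least 2 UMIs in 1.03% to 2.70% of OLs. *Adamtsl3*-positive fibroblasts had a median of 4292 UMIs over all libraries, and library medians of 3617 to 5414.5 UMIs against 2953 to 4166 in *Adamtsl3*-negative fibroblasts. Comparisons of levels were therefore also run after thinning to 1000 UMIs and against *Adamtsl3*-negative nuclei matched for UMIs.

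The genes that defined the nuclei are given as a description, without a test. *Adamtsl3* itself (chr7:81984645-82263658, GRCm39, plus strand) was at 2276 ± 414 CPM in the *Adamtsl3*-positive nuclei (SD, n = 8), and at 47.7 ± 16.4 CPM in empty droplets, the barcodes with 200 to 500 UMIs of the same libraries. *Bnc2*, a zinc-finger factor, was at 2657 ± 388 CPM against 826 ± 86.6 CPM in *Adamtsl3*-negative fibroblasts, with a UMI in 97.7% and 56.5% of nuclei against 2.01% of OLs. *Cdh11*, a mesenchymal cadherin, was at 354 ± 53.9 against 75.4 ± 12.9 CPM. The third marker named with this population, the proteoglycan *Dcn*, went the other way. *Dcn* was at 288 ± 62.1 CPM in *Adamtsl3*-positive and 880 ± 142 CPM in *Adamtsl3*-negative fibroblasts, and empty droplets held 524 ± 115 CPM. *Dcn* is thus no marker of these nuclei against other fibroblasts. *Trpm3*, a cation channel, was at 4504 ± 1342 against 19239 ± 2541 CPM, and *Ranbp3l*, a nuclear export factor of SMAD proteins, at 488 ± 168 against 2239 ± 365 CPM. Among the 715 nuclei, 283 had UMIs of exactly 4 of the 8 fibroblast genes, 181 of 5, 153 of 6, 62 of 7 and 36 of all 8.

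Of fibroblast markers that the rule did not use, *Phldb2* was measured at 952 ± 162 CPM in *Adamtsl3*-positive and 1034 ± 81.4 CPM in *Adamtsl3*-negative fibroblasts (log2 fold change -0.05 ± 0.08, SE; edgeR adjusted p = 0.73). Empty droplets held *Phldb2* at 70.9 ± 17.3 CPM. The proteoglycan *Lum* was lower, with 2.04, 10.2 and 31.8 CPM as the lowest, median and highest library against 67.7, 90.0 and 121 CPM, and so was the PDGF receptor *Pdgfra*, with 46.1, 68.5 and 88.2 against 125, 169 and 249 CPM. Neither gene overlapped between the groups. *Lum* and *Pdgfra* had log2 fold changes of -2.44 and -1.31 (edgeR adjusted p = 2.0e-08 and 1.7e-08).

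To describe what else set these nuclei apart, counts were summed per library over *Adamtsl3*-positive and over *Adamtsl3*-negative fibroblasts and compared within libraries. *Adamtsl3*-positive fibroblasts had higher levels of some solute carriers and efflux pumps, *Slc4a10* and *Slc47a1* among them, and lower levels of others such as *Slc7a11* and *Slc22a8*. They had higher levels of the mechanically gated channel *Piezo2*, of the secreted signals *Rspo3*, *Slit2*, *Bmp5* and *Hgf*, and of the collagen *Col25a1*. They had lower levels of most laminins and of the type IV collagens tested, of tenascin-C and periostin, of the retinoic acid enzymes *Aldh1a1*, *Aldh1a2* and *Rdh10*, and of the potassium channel *Kcnk2*. Of 10331 genes tested, 2403 were called at an adjusted p below 0.05 and a log2 fold change beyond 0.5 in size, 1009 higher (9.77% of the genes tested) and 1394 lower (13.5%), 23.3% in either direction. With every nucleus thinned to 1000 UMIs, 3157 genes could be tested and 1010 were called. Of the 2403 genes, 851 could be tested after thinning, and 804 of them were called again with all 851 keeping their direction. The median log2 fold change over all genes tested was -0.01.

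The 12 genes with the largest increases were *Rtl4*, *Slc4a10*, *Slc47a2*, *Tll1*, *Hgf*, *Prmt8*, *Slc26a7*, *Chrm3*, *Vsx1*, *Slc47a1*, *Kcnb2* and *Tspan11*, with log2 fold changes from 5.91 down to 4.85. The choice of named genes required 1 direction in all 8 libraries and a large fold change, which favours groups that lie apart. The groups did not overlap for any of the 12. *Rtl4*, a gag-like gene derived from a retrotransposon on chromosome X, was at 390, 419 and 750 CPM as the lowest, median and highest library, against 3.37, 6.86 and 17.6 CPM. *Kcnb2*, a voltage-gated potassium channel subunit, was at 1169, 1423 and 2289 CPM against 30.6, 51.0 and 85.3 CPM. *Chrm3*, a muscarinic acetylcholine receptor, was at 743, 928 and 1293 CPM against 14.9, 25.8 and 82.8 CPM. Even the library with the least *Kcnb2* or *Chrm3* in *Adamtsl3*-positive nuclei stood above every *Adamtsl3*-negative library by a wide margin. *Tll1*, a tolloid-like metalloprotease that cleaves procollagens and BMP antagonists, was at 221, 325 and 433 CPM against 2.55, 7.68 and 13.8 CPM. *Hgf*, hepatocyte growth factor, was low in *Adamtsl3*-positive and close to 0 in *Adamtsl3*-negative fibroblasts, at 24.6, 29.9 and 38.7 CPM against 0, 0.294 and 2.19 CPM. *Vsx1*, a homeobox factor known from retinal bipolar cells, was at 35.1, 55.0 and 78.4 CPM against 0, 1.11 and 5.61 CPM. Log2 fold changes were 5.91 ± 0.17 for *Rtl4*, 5.37 ± 0.17 for *Tll1*, 5.34 ± 0.36 for *Hgf*, 5.04 ± 0.20 for *Chrm3*, 5.03 ± 0.30 for *Vsx1* and 4.96 ± 0.16 for *Kcnb2* (SE; edgeR adjusted p of 1.7e-10 or below for each).

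Some of these genes lie near each other in the genome (GRCm39 coordinates throughout). The transporter genes *Slc47a2* (chr11:61192457-61233686) and *Slc47a1* (chr11:61234226-61269171) both lie on the minus strand of the same stretch of chromosome 11. *Slc47a1* and *Slc47a2* are related in sequence, and how reads that match both were counted was not examined. *Prmt8*, an arginine methyltransferase (chr6:127665972-127746697), and *Tspan11*, a tetraspanin (chr6:127864546-127930940), lie on the same stretch of chromosome 6. *Prmt8* was at 68.2 to 120 CPM against 0.669 to 5.10 CPM, and *Tspan11* at 190 to 282 CPM against 4.37 to 12.3 CPM. On chromosome 4, *Slc26a7* (chr4:14502430-14621819), among the genes with the largest increases, lies in the same region as *Necab1* (chr4:14952242-15149794), among those with the largest decreases.

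**Figure D2:**
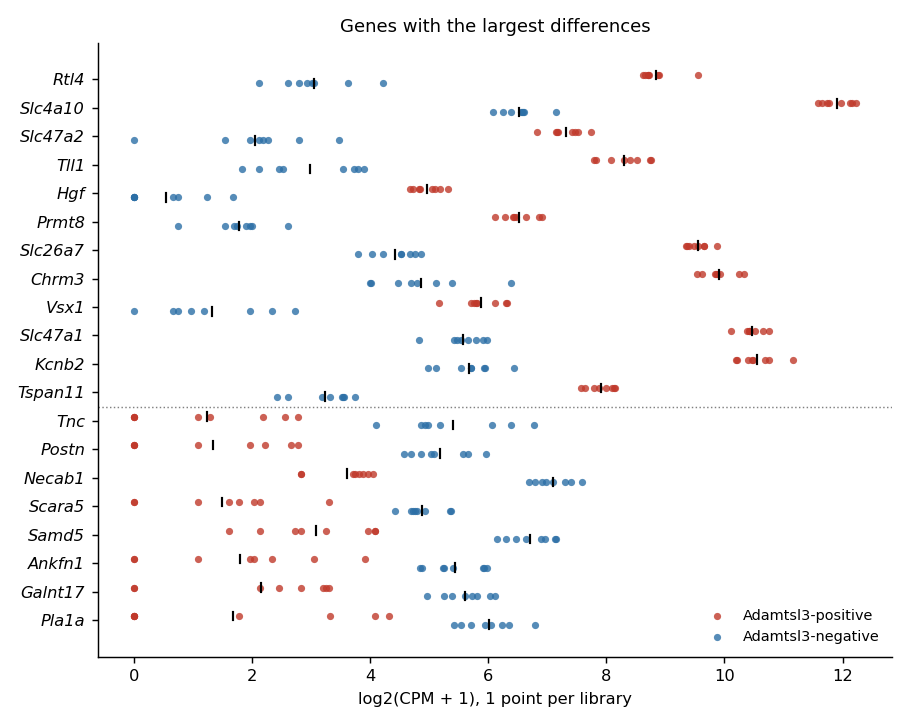
Levels of the 12 genes with the largest increases (above the dotted line) and the 8 with the largest decreases in *Adamtsl3*-positive against *Adamtsl3*-negative fibroblasts, as log2(CPM + 1) with 1 point per library and group and the mean as a tick. For *Slc4a10* the *Adamtsl3*-positive libraries lie between 3056 and 4811 CPM and the *Adamtsl3*-negative libraries between 66.3 and 141 CPM. None of the 20 genes, chosen for a large difference of the same direction in every library, overlaps between the groups.

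Transporters differed in both directions. Of 21 tested genes of arachnoid barrier and transport, 9 were higher and 11 lower, with a median log2 fold change of -0.51. For this list and those below against *Adamtsl3*-negative fibroblasts, the shares over all genes tested were 9.77% higher and 13.5% lower. *Slc4a10*, a sodium-dependent bicarbonate transporter (chr2:61876500-62157100), was at 3056, 3765 and 4811 CPM as the lowest, median and highest library against 66.3, 93.8 and 141 CPM. *Slc47a1*, an antiporter that expels organic cations, was at 1104, 1379 and 1732 CPM against 27.4, 47.6 and 61.9 CPM. Both were far apart between the groups, and their means in *Adamtsl3*-negative fibroblasts were below the 125 ± 42.2 and 52.7 ± 15.6 CPM of empty droplets. A UMI of *Slc47a1* was found in 94.0% ± 2.37 of *Adamtsl3*-positive nuclei, 10.5% ± 2.35 of *Adamtsl3*-negative fibroblasts and 2.64% ± 0.799 of OLs. The log2 fold changes of *Slc4a10* and *Slc47a1* were 5.47 ± 0.11 and 4.98 ± 0.11 (SE; edgeR adjusted p = 3.0e-18 and 4.8e-18).

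Anion and amino acid carriers followed. *Slc26a7*, a chloride and bicarbonate transporter, was at 652, 732 and 942 CPM against 12.9, 21.9 and 28.0 CPM, and *Slc26a2*, which imports the sulfate used to build proteoglycans, at 351, 508 and 683 CPM against 26.8, 35.5 and 53.9 CPM. *Slc38a2*, a transporter of small neutral amino acids, was at 3270, 3817 and 5265 CPM against 421, 527 and 710 CPM. The 3 carriers were higher in all 8 libraries without overlap, with log2 fold changes of 5.24 for *Slc26a7*, 3.84 for *Slc26a2* and 2.93 for *Slc38a2*. *Slc16a9*, of the monocarboxylate transporter family, was at 236 ± 60.5 against 17.5 ± 4.24 CPM. *Slc4a4*, a bicarbonate cotransporter best known from astrocytes, was at 783 ± 157 against 174 ± 36.8 CPM, and astrocytes held 1085 ± 90.5 CPM. The multidrug pumps of the ATP-binding cassette family were higher as well, with *Abcc4* at 259 ± 80.9 against 34.7 ± 17.4 CPM, *Abcb1a* at 468 ± 65.6 against 105 ± 18.3 CPM and *Abcg2* at 332 ± 53.6 against 101 ± 17.0 CPM. E-cadherin (*Cdh1*) was at 326 ± 60.4 against 94.2 ± 23 CPM. Log2 fold changes were 3.76 for *Slc16a9*, 2.26 for *Slc4a4*, 3.01 for *Abcc4*, 2.23 for *Abcb1a*, 1.80 for *Abcg2* and 1.87 for *Cdh1* (edgeR adjusted p of 3.0e-11 or below for each).

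Other carriers of the same list went down. *Slc7a11*, the cystine and glutamate exchanger, was at 51.2, 133 and 332 CPM against 724, 976 and 1487 CPM (log2 fold change -2.71 ± 0.15). *Slc6a13*, a GABA transporter, was at 94.9 ± 51.2 against 404 ± 98.9 CPM and *Slc22a8*, an organic anion transporter, at 127 ± 61.8 against 430 ± 68.8 CPM (log2 fold changes -2.02 and -1.69). *Slc22a6*, *Slco1a4*, *Slc13a3*, *Slc6a12*, *Ocln*, *Tjp1*, *Dpp4* and *Ptgds* were also called lower. For *Dpp4*, a membrane peptidase, the share of nuclei with a UMI ran opposite to the level, at 48.3% ± 7.40 against 38.1% ± 5.22 (SD, n = 8), with 2.27% ± 0.604 in OLs and median depths of 4099 and 3412 UMIs. After thinning to 1000 UMIs it was 15.3% ± 3.55 against 18.5% ± 2.93. The call of *Ptgds*, the prostaglandin D synthase of the meninges, was not stable. *Ptgds* was at 4430, 12037 and 22294 CPM against 15764, 18251 and 20670 CPM, the groups overlapped, and the call was lost with DESeq2, without the library block (log2 fold change -0.39), in cKO libraries alone (-0.15), and without control replicate 1, 2 or 4 or cKO replicate 13 (-0.54 to -0.41).

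Over all genes tested, 9.77% were higher and 13.5% lower. Among the 15 tested genes of mechanosensitive channels and of the YAP pathway, which relays mechanical tension to the nucleus, 1 was higher and 4 were lower (median log2 fold change -0.42). The higher gene was *Piezo2* (chr18:63143284-63520260, minus strand), which encodes a cation channel opened by membrane tension. *Piezo2* was at 1005, 856, 536 and 856 CPM in the *Adamtsl3*-positive nuclei of the control libraries and 737, 667, 590 and 690 CPM in those of the libraries labelled cKO. In *Adamtsl3*-negative fibroblasts the lowest, median and highest libraries held 52.2, 78.9 and 105 CPM, so that the groups were apart in every library. The log2 fold change of *Piezo2* was 3.30 ± 0.12 (SE, edgeR adjusted p = 8.6e-15). A UMI of *Piezo2* was found in 84.5% ± 6.17 of *Adamtsl3*-positive nuclei, 18.4% ± 3.82 of *Adamtsl3*-negative fibroblasts, 62.6% ± 6.13 of OLs and 5.33% ± 0.900 of astrocytes (SD, n = 8). After thinning to 1000 UMIs the shares were 49.7% ± 8.93, 7.86% ± 2.06, 33.2% ± 4.59 and 1.69% ± 0.395 in the same order. OLs held *Piezo2* at 464 ± 63.4 CPM over all libraries and empty droplets at 59.8 ± 12.3 CPM.

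*Kcnk2*, which encodes a potassium channel that also opens on membrane stretch (chr1:188940126-189134470), ran opposite to *Piezo2*. *Kcnk2* was at 13.6, 55.2 and 153 CPM as the lowest, median and highest library in *Adamtsl3*-positive nuclei against 507, 608 and 727 CPM in *Adamtsl3*-negative ones, without overlap (log2 fold change -3.02 ± 0.22, edgeR adjusted p = 4.3e-10). *Ccn2*, connective tissue growth factor and a target of YAP, was at 126 ± 60.2 against 657 ± 340 CPM, and *Amotl2*, an angiomotin that binds YAP, at 52.3 ± 13.9 against 83.9 ± 11.0 CPM. *Piezo1* was low in both groups, at 10.9 ± 4.82 against 28.6 ± 8.82 CPM. The log2 fold changes were -2.21 for *Ccn2*, -0.61 for *Amotl2* and -1.09 for *Piezo1* (edgeR adjusted p of 0.0019 or below). *Yap1* and its partner *Wwtr1* were not called, with log2 fold changes of 0.25 and -0.10.

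The extracellular matrix genes split by family. Of 20 basement membrane genes tested, none was higher and 16 were lower, with a median log2 fold change of -1.20. *Lama1*, a laminin chain of the pial basement membrane, was at 0, 11.4 and 59.6 CPM against 99.4, 165 and 296 CPM, and *Col4a6*, a type IV collagen chain, at 5.85, 15.8 and 53.5 CPM against 140, 173 and 242 CPM. No library of one group reached the other for either gene (log2 fold changes -2.96 ± 0.30 and -2.99 ± 0.24, edgeR adjusted p = 6.7e-08 and 3.0e-09). *Col4a5*, *Lamc1* and *Col18a1* fell by 2.20, 1.40 and 2.23 on the log2 scale, and *Hspg2* (perlecan) and *Nid1* (nidogen) by 0.99 and 0.76. *Agrn*, *Nid2*, *Lama5* and *Lamb2* were not called, with log2 fold changes from -0.41 to 0.36.

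Among 13 other collagens, 7 were higher and 4 lower (median log2 fold change 1.05). *Col25a1*, a collagen with a transmembrane domain, stood out at 783, 1298 and 1683 CPM against 68.8, 107 and 244 CPM (log2 fold change 3.52 ± 0.15, edgeR adjusted p = 7.4e-14). *Col8a1* and *Col8a2*, which form short-chain networks in Descemet's membrane and vessel walls, were at 375 ± 77.8 against 117 ± 50.4 CPM and at 85.8 ± 8.38 against 20.9 ± 3.46 CPM. *Col12a1*, *Col6a1*, *Col6a2* and *Col14a1* were called higher with log2 fold changes from 1.05 to 1.82, and *Col13a1*, *Col26a1*, *Col22a1* and *Col6a3* lower with -2.19 to -1.07. Of the 6 fibrillar collagens outside the rule, 3 were lower (*Col3a1*, *Col5a1* and *Col5a3*, -0.78, -1.42 and -0.93) and none higher.

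Of 16 genes of elastic fibres and microfibrils, 1 was higher and 7 lower (median log2 fold change -0.37). *Eln*, elastin, was at 57.7 ± 27.4 against 238 ± 77.3 CPM and *Ltbp1*, which tethers latent TGF-β, at 14.4 ± 12.9 against 96.2 ± 21.1 CPM (log2 fold changes -1.95 and -2.49). The higher gene was *Efemp1*, at 529 ± 50.1 against 382 ± 34.2 CPM. Among 11 proteoglycans outside the rule, *Gpc3* and *Gpc6* were higher (log2 fold changes 1.49 and 0.68) and 7 were lower, *Lum* by the most. *Tnc* and *Postn* were among the 8 named decreases. *Tnc*, tenascin-C, was at 0, 1.28 and 5.85 CPM against 16.2, 33.0 and 108 CPM, and *Postn*, periostin, at 0, 2.01 and 5.85 CPM against 22.9, 32.3 and 61.0 CPM (log2 fold changes -4.03 ± 0.34 and -3.64 ± 0.34).

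Of 11 ADAMTS and ADAMTS-like genes besides *Adamtsl3*, 5 were higher and 2 lower (median log2 fold change 0.51). *Adamtsl1*, its close relative, was at 290, 360 and 458 CPM against 33.1, 37.5 and 117 CPM (log2 fold change 2.99 ± 0.13, edgeR adjusted p = 1.9e-13). *Adamts5* (aggrecanase), *Adamts2* (procollagen N-proteinase), *Adamts1* and *Thsd4* were higher by 1.46, 0.94, 0.79 and 0.74 on the log2 scale, and *Adamtsl4* and *Adamts10*, both linked to fibrillin microfibrils, fell by 1.06 and 0.74.

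The remaining genes with the largest decreases were *Necab1*, *Scara5*, *Samd5*, *Ankfn1*, *Galnt17* and *Pla1a*, with log2 fold changes from -3.35 to -3.06. *Necab1*, a neuronal calcium-binding protein, was at 6.12, 12.7 and 15.6 CPM against 102, 130 and 191 CPM, and *Scara5*, a ferritin receptor, at 0, 2.24 and 8.82 CPM against 20.3, 26.4 and 40.4 CPM. *Samd5* was at 2.04 to 16 CPM against 70.3 to 141 CPM, *Ankfn1* at 0 to 14.1 against 27.7 to 61.9 CPM, *Galnt17*, a transferase of N-acetylgalactosamine, at 0 to 8.82 against 30.1 to 68.6 CPM, and *Pla1a*, a phosphatidylserine phospholipase, at 0 to 18.9 against 42.1 to 110 CPM. The groups did not overlap for any of the 6, which were chosen for large decreases seen in every library.

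**Figure D3:**
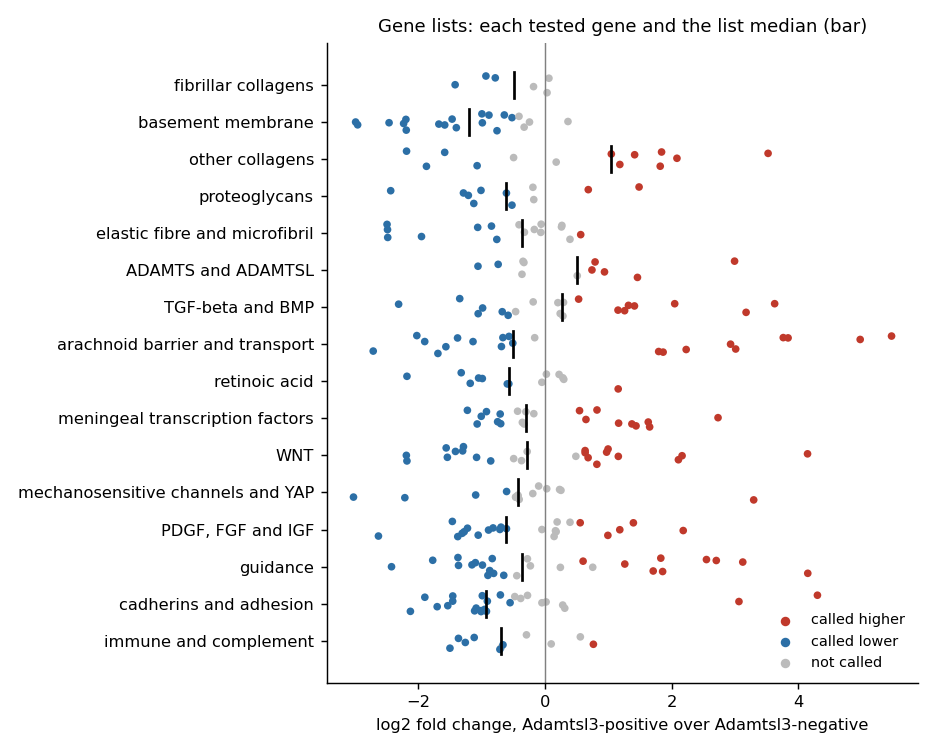
Log2 fold change of each tested gene of 16 gene lists in *Adamtsl3*-positive over *Adamtsl3*-negative fibroblasts, with genes called higher in red, called lower in blue and not called in grey, and the list median as a bar. Basement membrane genes lie almost wholly below 0 (16 of 20 called lower), while arachnoid barrier and transport genes spread to both sides (9 higher, 11 lower).

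Signalling genes were split within pathways, often between a ligand and another of the same family. Of 20 TGF-β and BMP genes, 8 were higher and 6 lower (median log2 fold change 0.26). *Bmp5* was at 156, 244 and 294 CPM against 8.14, 19.1 and 24.7 CPM, and *Bmp4* at 122, 204 and 216 CPM against 55.0, 70.5 and 88.3 CPM. *Bmp7* went the other way, at 49.2, 128 and 181 CPM against 266, 318 and 364 CPM. None of these 3 ligands overlapped between groups (log2 fold changes 3.63 ± 0.14, 1.41 ± 0.13 and -1.35 ± 0.15). *Bmp2* and *Bmp6* fell by 2.31 and 0.67 on the log2 scale. Of the intracellular members, *Smad9*, which transmits BMP signals, was at 98.1 ± 30.2 against 11.0 ± 3.63 CPM (log2 fold change 3.18 ± 0.16), the inhibitory *Smad6* and *Smad7* were higher by 1.15 and 1.26, and *Smad3*, which transmits TGF-β signals, fell by 0.98.

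Of 23 WNT genes, 10 were higher and 9 lower (median log2 fold change -0.28). *Rspo3*, an R-spondin that amplifies WNT signals at the receptor, was at 524, 705 and 888 CPM against 35.5, 41.6 and 50.5 CPM (log2 fold change 4.15 ± 0.12, edgeR adjusted p = 4.2e-16). Of the 6 ligands tested, *Wnt9a* and *Wnt16* were called higher (log2 fold changes 0.63 and 0.68), and *Wnt4*, *Wnt6*, *Wnt5a* and *Wnt5b* were lower, with *Wnt4* at 50.9 ± 24.8 against 254 ± 43.3 CPM and *Wnt6* at 54.9 ± 24.7 against 178 ± 27.6 CPM. Receptors and inhibitors were mixed: *Fzd4* and the secreted inhibitor *Sfrp4* were higher by 2.17 and 2.11, *Fzd6* and *Ror2* fell by 1.30 and 2.18, and *Axin2*, a target of β-catenin, fell by 1.29. *Wnt9a*, *Wnt16*, *Sfrp1* and *Rspo2* kept no call without the library block.

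Axon guidance genes were divided as well, with 9 of 26 higher and 12 lower (median log2 fold change -0.36). *Slit2*, a secreted repellent of growing axons, was at 1346, 1673 and 1902 CPM against 39.5, 83.6 and 192 CPM, and *Slit3* at 164, 199 and 322 CPM against 18.2, 43.7 and 59.7 CPM. *Robo1*, a receptor for SLIT proteins, had the opposite order, at 141, 333 and 457 CPM against 785, 867 and 1228 CPM. Each of the 3 genes was apart between the groups in all 8 libraries (log2 fold changes 4.15 ± 0.18, 2.71 ± 0.17 and -1.37 ± 0.14). *Nrp1* was at 503 ± 130 against 89.2 ± 12.1 CPM and its relative *Nrp2* at 70.3 ± 16.8 against 153 ± 17.5 CPM, which gave log2 fold changes of 2.55 and -0.99. *Ntng1* was higher by 3.12 and the ephrin *Efnb2* fell by 2.42. Astrocytes also held *Slit2*, at 601 ± 53.9 CPM.

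Of 25 cadherins and adhesion molecules outside the rule, 2 were higher and 16 lower (median log2 fold change -0.92). Against *Ranbp3l*-positive fibroblasts alone 6 of 24 were higher and 8 lower (median -0.33), beside 11.0% and 11.8% of all genes tested. Against fibroblasts without *Adamtsl3* and *Ranbp3l* 3 of 23 were higher and 17 lower (median -2.17), beside 12.8% and 14.1%. The 2 higher were *Pcdh7*, a protocadherin, at 1615, 2272 and 2968 CPM against 94.3, 115 and 172 CPM (log2 fold change 4.30 ± 0.13, edgeR adjusted p = 4.7e-16), and *Cdh6* at 59.6 ± 19.9 against 6.83 ± 3.23 CPM (3.06 ± 0.26). *Sdk2*, *Nrxn3* and *Ntm* fell by 2.13, 1.90 and 1.70.

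Of 13 retinoic acid genes, 1 was higher and 7 were lower (median log2 fold change -0.57). *Aldh1a2*, which makes retinoic acid, was at 23.9, 113 and 196 CPM against 453, 496 and 583 CPM (log2 fold change -2.18 ± 0.19, edgeR adjusted p = 6.2e-09), and its relative *Aldh1a1* was at 176 ± 36.3 against 435 ± 81.0 CPM. The nuclear receptor *Rxra* was the higher gene, at 51.1 ± 15.3 against 23.1 ± 3.95 CPM. Of 23 PDGF, FGF and IGF genes, 5 were higher and 12 lower (median -0.61). The ligands *Pdgfc* and *Pdgfd* were higher by 2.18 and 0.99, while both PDGF receptors, *Pdgfra* and *Pdgfrb*, fell by 1.31 and 1.05. *Fgf1* fell by 1.38 and *Igfbp3* by 2.63, and *Igfbp4* was higher by 1.40. Of 11 immune and complement genes, 6 were lower, among them the chemokine *Cxcl12*, which fell by 1.5, and 1, the cytokine receptor *Lifr*, was higher by 0.76.

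Transcription factors of the meninges also differed. Of 21 tested, 9 were higher and 7 lower (median log2 fold change -0.30). *Foxp1* was at 2673, 3501 and 4353 CPM against 1059, 1112 and 1353 CPM, and *Tbx15*, a T-box factor of mesenchyme, at 542, 671 and 928 CPM against 162, 236 and 304 CPM. Neither factor overlapped between groups (log2 fold changes 1.65 ± 0.08 and 1.63 ± 0.09). *Foxp2*, *Prrx1* and *Nr2f1* were higher by 1.44, 1.37 and 1.16. *Tbx18*, *Ebf2*, *Tcf4* and *Osr1* fell by 1.23, 1.07, 1.01 and 0.92. *Foxc1*, a regulator of meningeal development, was at 170 ± 44.9 against 240 ± 25.0 CPM and did not pass the limit on fold change (-0.43).

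RNA of other cell types was present in both groups. The summed level of 8 OL markers ranged from 1816 to 2643 CPM in *Adamtsl3*-positive and from 2471 to 3986 CPM in *Adamtsl3*-negative fibroblasts, against 23079 to 29868 CPM in empty droplets. Of these 8 markers 1 (*Mog*, -0.68) was called, in the lower direction, and *Cldn11* stands in both this list and that of the arachnoid barrier. The sum of 4 astrocyte markers ranged from 1098 to 1475 against 1045 to 1339 CPM, with *Slc4a4* higher and *Slc1a3* lower. For 6 myeloid markers it ranged from 51.2 to 451 against 86.4 to 197 CPM, for 6 endothelial markers from 108 to 282 against 266 to 468 CPM, for 6 mural markers from 10.2 to 216 against 53.9 to 188 CPM, and for 5 neuron markers from 15.4 to 95.8 against 67.5 to 222 CPM. The 5 T cell markers summed to at most 40.6 against 48.3 to 122 CPM, 5 Schwann cell markers to at most 26.7 against 25.8 to 69.2 CPM, 5 melanocyte markers to at most 13.6 against 6.78 CPM and 5 skeletal muscle markers to at most 10.2 against 47.7 CPM. The Schwann cell marker *Pmp2* and the muscle marker *Myh4* were at 0 in both groups, and the melanocyte marker *Tyrp1* in *Adamtsl3*-positive nuclei only. The pituitary hormones *Gh*, *Prl* and *Pomc* summed to 2.23 to 1131 against 1.91 to 2058 CPM, highest in control replicate 3 in both groups. Of the 715 nuclei, 216 had at least 2 UMIs from the endothelial, mural, myeloid, T cell, neuron or Schwann cell list. The other lists, those of OLs and astrocytes among them, were not used for this count. The share of such nuclei was 16.5% to 40.4% per library in *Adamtsl3*-positive and 40.8% to 50.4% in *Adamtsl3*-negative fibroblasts. Without such nuclei in either group, 2007 of 6901 genes were called, and of the 2403 genes 1618 could be tested and 1533 were called again. Of 249 described genes that could be tested without such nuclei, 231 kept their side of the threshold, 15 passed it in addition, 3 no longer passed it and none reversed.

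Nuclei on either side of the threshold of 2 UMIs are given as a description, for genes already known to differ between the groups. The smallest library sums held 9 nuclei with 1 UMI and 7 nuclei with 2 to 3 UMIs. From fibroblasts with 0 *Adamtsl3* UMIs through 1, 2 to 3, and 4 or more, *Slc4a10* was at 93.1 ± 22.4, 938 ± 693, 1984 ± 703 and 4189 ± 751 CPM (SD, n = 8). *Piezo2* was at 79.5 ± 19.8, 239 ± 88.8, 580 ± 214 and 767 ± 157 CPM over the same steps. *Kcnk2* fell over these steps, at 609 ± 70.5, 235 ± 102, 133 ± 94.3 and 59.6 ± 46.8 CPM. Intermediate nuclei and a mixture of nuclei of both kinds cannot be told apart from these means. The same order was seen for *Slc47a1*, *Slc38a2*, *Slit2* and *Rspo3* (rising) and *Lama1* (falling). With 3 UMIs as the threshold 2475 genes were called, and with nuclei of 1 UMI counted as negative 2408.

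**Figure D4:**
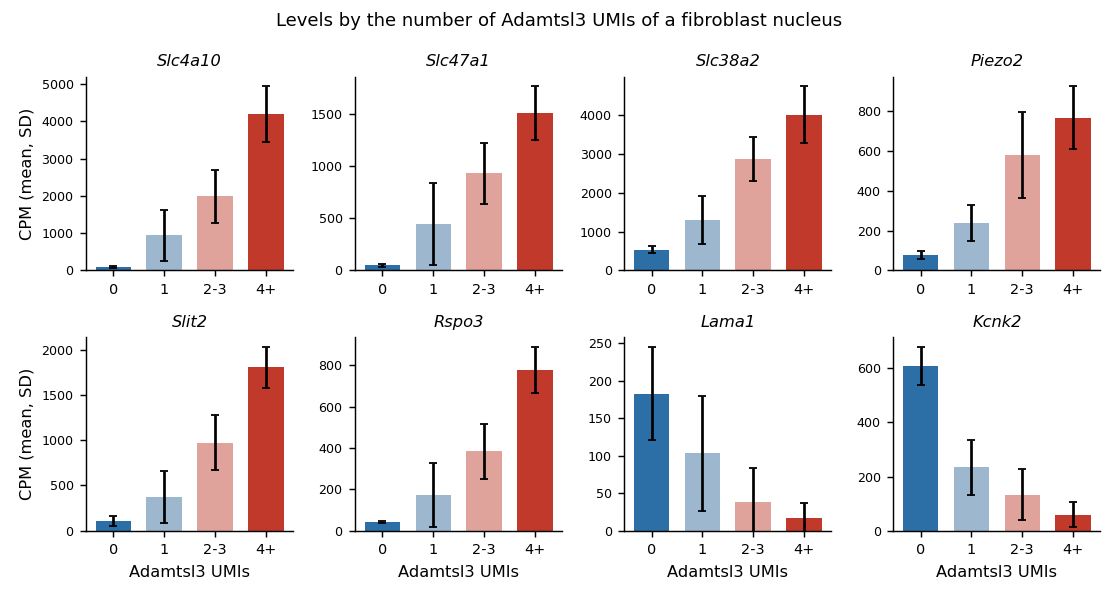
Mean CPM over 8 libraries (bars, SD as error bars) of 8 genes in fibroblasts with 0, 1, 2 to 3, and 4 or more UMIs of *Adamtsl3*, with a linear scale of its own for each gene. *Piezo2* runs from 79.5 CPM in nuclei without *Adamtsl3* to 767 CPM in nuclei with 4 or more UMIs, and *Kcnk2* from 609 to 59.6 CPM.

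The *Adamtsl3*-positive nuclei were not uniform. *Ranbp3l*, a gene of the rule found in most other fibroblasts (a UMI in 83.6% ± 5.46 of *Adamtsl3*-negative nuclei), had no UMI in 516 of the 715, 1 UMI in 93 and at least 2 in 106, or 14.8%. The 516 nuclei without *Ranbp3l* held *Slc4a10* at 4744 ± 557 CPM, *Piezo2* at 851 ± 124 CPM, *Kcnk2* at 11.7 ± 12.9 CPM and *Lama1* at 3.82 ± 3.44 CPM. In the 106 nuclei with both genes, 7 to 25 in each library, the levels were 1745 ± 462, 451 ± 239, 220 ± 160 and 48.4 ± 49.5 CPM. *Ptgds* was at 3000 ± 1345 CPM in the first and 34973 ± 12515 CPM in the second. The nuclei with both genes were thus between the *Adamtsl3*-positive nuclei without *Ranbp3l* and the *Adamtsl3*-negative ones for *Slc4a10*, *Piezo2* and *Kcnk2*, and above both for *Ptgds*. They were also deeper, with library medians of 4746 to 11346 UMIs against 3503 to 4933.5. Of the 22 *Adamtsl3*-positive nuclei over 20000 UMIs, which held 19.0% of the UMIs of all 715, 16 had at least 2 UMIs of *Ranbp3l*. All 22 had at least 2 UMIs from the endothelial, mural, myeloid, T cell, neuron or Schwann cell list. Both limits are fixed counts, which deep nuclei reach more easily. A droplet with several nuclei and a nucleus with both genes cannot be told apart here. Without nuclei over 20000 UMIs, a limit chosen after seeing the data, 2460 genes were called.

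*Adamtsl3*-positive fibroblasts were then set against the 1533 fibroblasts with at least 2 UMIs of *Ranbp3l* and none of *Adamtsl3*, the largest other group. The transporters *Slc47a2* and *Slc4a10* were again among the leading genes, while arachnoid barrier and transport genes went both ways. Of 21 tested, 9 were higher and 11 lower (median log2 fold change -0.68). Of 9729 genes tested, 1070 were higher (11.0%) and 1145 lower (11.8%), 22.8% in either direction. The 5 largest increases were *Rtl4*, *Slc47a2*, *Prmt8*, *Chrm3* and *Slc4a10*, with log2 fold changes of 7.10 ± 0.21, 6.62 ± 0.24, 6.42 ± 0.25, 6.37 ± 0.14 and 6.34 ± 0.20. In *Ranbp3l*-positive fibroblasts *Chrm3* was at 7.06 to 17.2 CPM and *Slc4a10* at 21.2 to 94.9 CPM. The 5 largest decreases were *Tnc*, *Postn*, *Necab1*, *Ankfn1* and *Pla1a*, with -4.10, -3.39, -3.34, -3.30 and -3.16. None of the 10, chosen for large differences of the same direction in every library, overlapped between the groups. *Piezo2* was at 62.4 ± 21.6 CPM in *Ranbp3l*-positive fibroblasts (log2 fold change 3.64 ± 0.14, edgeR adjusted p = 6.1e-15), and of 18 basement membrane genes 14 were lower and 1 higher. Both comparisons use the same *Adamtsl3*-positive nuclei, and most *Adamtsl3*-negative nuclei are *Ranbp3l*-positive, so the values are not independent.

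The 330 fibroblasts without a UMI of either *Adamtsl3* or *Ranbp3l* were the third group. *Adamtsl3*-positive nuclei differed from them as well, and here their barrier and transport genes were mostly higher. Of 5641 genes tested, 722 were higher (12.8%) and 795 lower (14.1%), 26.9% in either direction. DESeq2, over 14358 genes with an adjusted p, called 768 higher and 1471 lower. Of 18 arachnoid barrier and transport genes 12 were higher and 2 lower, with a median log2 fold change of 1.33 against 0.00 over all genes tested. The balance of other lists also differed from that against all *Adamtsl3*-negative nuclei, without a test of the difference. Of 10 retinoic acid genes 3 were higher and 2 lower (median -0.12), of 14 WNT genes 7 were higher and 1 lower (0.58), and of 19 meningeal transcription factors 7 were higher and 2 lower (0.31). The 5 largest increases were *Agtr1b*, *Rtl4*, *Bmp5*, *Slc26a7* and *Tll1*, with log2 fold changes of 4.82 ± 0.40, 3.79 ± 0.31, 3.74 ± 0.23, 3.72 ± 0.20 and 3.68 ± 0.26. *Agtr1b*, an angiotensin II receptor, was at 61.4, 104 and 261 CPM in *Adamtsl3*-positive nuclei and 4.00 ± 7.43 CPM in this group. *Piezo2* was higher in *Adamtsl3*-positive nuclei by 2.22 ± 0.17. The 5 largest decreases, *Lrrtm4*, *Galnt17*, *Samd5*, *Grm5* and *Tenm3* (-4.32 to -4.09), included synaptic genes. *Lrrtm4* was at 561 ± 330 CPM and the glutamate receptor *Grm5* at 363 ± 382 CPM in the nuclei without *Adamtsl3* and *Ranbp3l*, and 7 of 8 OL markers were higher there. Without nuclei flagged by the endothelial, mural, myeloid, T cell, neuron or Schwann cell list, 1191 of 3298 genes were called over the 7 libraries left. OL markers were not part of that flag. The 5 largest increases and *Tenm3* kept their calls, while *Lrrtm4*, *Grm5*, *Galnt17* and *Samd5* could not be tested.

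To ask whether the labelled loss of *Piezo2* in the OL lineage was accompanied by changes in *Adamtsl3*-positive fibroblasts, the 8 sums of these nuclei were compared between genotypes. No gene was called. Of 8549 genes tested with edgeR, 0 passed (0% in either direction), with 489 at an unadjusted p below 0.05. DESeq2 called 3, the predicted gene *Gm47283* (DESeq2 adjusted p = 0.00037), *Chsy3* (0.012) and *Nrg3* (0.020). *Piezo2* in these fibroblasts was at 813 ± 198 CPM in control and 671 ± 61.3 CPM in cKO libraries (log2 fold change -0.28, edgeR adjusted p = 0.92), and the libraries overlapped. *Adamtsl3* was at 2439 ± 498 and 2113 ± 284 CPM, as a description only.

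Leaving out predicted or clone names, the gene with the smallest edgeR p was *Chsy3*, a chondroitin sulfate synthase. Genes named between genotypes, here and below, were chosen for small p-values, which favours genotypes that lie apart. The share of all tested genes that lay apart is not given. *Chsy3* was at 82.9, 102, 126 and 51.0 CPM in *Adamtsl3*-positive nuclei of the control libraries and at 29.2, 35.3, 32.4 and 21.8 CPM in those labelled cKO. All 4 control libraries were above all 4 cKO libraries. Its log2 fold change was -1.63 ± 0.27 (SE) with an edgeR adjusted p of 0.065, above the limit, and with DESeq2 -1.64 with an adjusted p of 0.012. In *Adamtsl3*-negative fibroblasts *Chsy3* was at 26.8, 21.7, 34.8 and 29.2 CPM in control and 33.1, 43.0, 6.67 and 14.1 CPM in cKO libraries, where the genotypes overlapped. Overlap in only 1 of the groups does not show a difference between them. No gene, *Chsy3* included, was called for a difference of the genotype effect between the groups. *Gm47283*, singled out after its values were seen, was at 6.14, 47.7, 25.5 and 51.0 CPM in control and 140, 86.5, 175 and 129 CPM in cKO libraries (log2 fold change 2.03, edgeR adjusted p = 0.065). Its control and cKO libraries did not overlap. In *Adamtsl3*-negative fibroblasts it was at 2.98, 77.3, 21.4 and 80.8 CPM in control and 85.4, 69.2, 144 and 114 CPM in cKO libraries, where the genotypes overlapped (log2 fold change 1.28, edgeR adjusted p = 0.999). The difference between these effects had an edgeR adjusted p of 0.94. The annotation places *Gm47283* on chromosome Y while all mice are labelled female, and reads of near-identical copies elsewhere could be counted there.

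The other named genes, also chosen for small p-values, had edgeR adjusted p-values of 0.79 or 0.80. *Vtn*, vitronectin, was at 70.7, 106, 171 and 75.4 CPM in control and 158, 302, 277 and 196 CPM in cKO libraries, with 1 control library above the lowest cKO library (log2 fold change 1.09). *Aldh1a2* was at 55.3, 23.9, 105 and 61.2 CPM in control and 146, 196, 121 and 135 CPM in cKO libraries, without overlap (1.14). *Islr*, a secreted leucine-rich repeat protein, was at 144, 280, 180 and 206 CPM in control and 322, 364, 381 and 277 CPM in cKO libraries, with control replicate 2 above cKO replicate 13 (0.74). *Vtn* and *Aldh1a2* were higher in *Adamtsl3*-negative than in *Adamtsl3*-positive nuclei of every library. *Trp53i11* and the linker histone *H1f2* had log2 fold changes of 0.79 and 0.77. *Mx2*, a GTPase induced by interferon, was at 30.7, 27.3, 41.3 and 99.9 CPM in control and 20.5, 14.1, 3.35 and 21.8 CPM in cKO libraries (-1.92), and *Rnf213*, also induced by interferon, at 141, 123, 180 and 177 CPM against 70.2, 75.9, 55.9 and 126 CPM (-0.95). *Mx2* did not overlap between genotypes and *Rnf213* did, in cKO replicate 13. *Plcxd3* had a log2 fold change of -1.24. *Prl*, prolactin, was at 3.07, 58.0, 715 and 38.7 CPM in control and 2.92, 37.1, 0 and 5.81 CPM in cKO libraries (-4.39). The high *Prl* of control replicate 3 stood beside pituitary hormones in the empty droplets of that library, at 7831 CPM summed over *Gh*, *Prl* and *Pomc* against at least 208 CPM in the other control libraries and 5.21 to 73.2 CPM in cKO libraries. Without control replicate 3, 35 genes were called, 32 of them higher in cKO libraries, and the part of the pituitary RNA in that count was not tested.

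**Figure D5:**
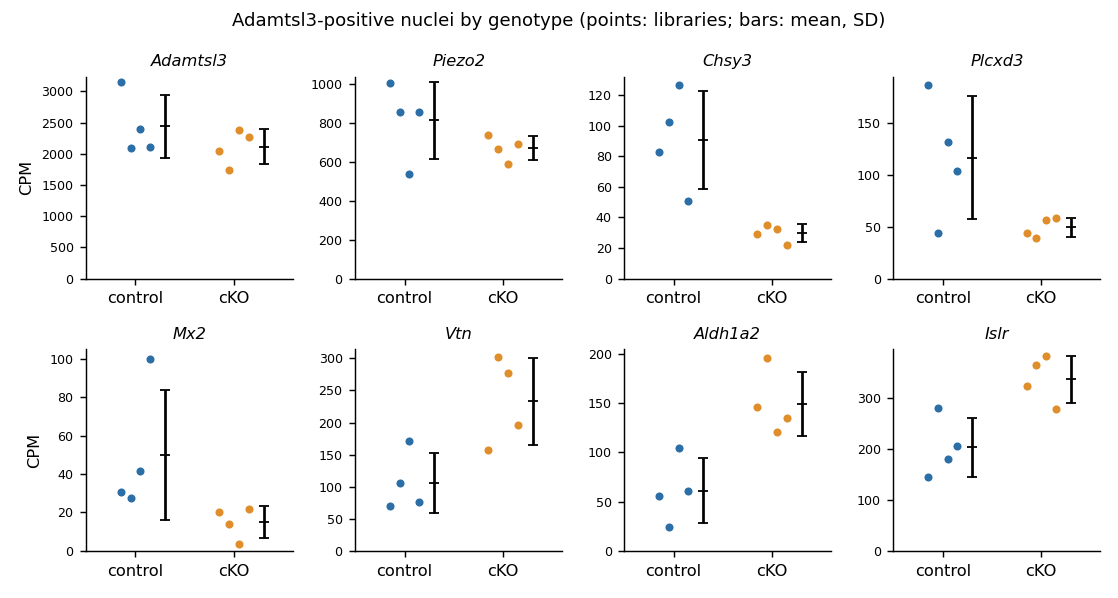
CPM of 8 genes in *Adamtsl3*-positive fibroblasts of each control and cKO library (points) with the mean and SD of each genotype. *Piezo2* overlaps between genotypes, while *Chsy3* lies between 51.0 and 126 CPM in control and between 21.8 and 35.3 CPM in cKO libraries, with an edgeR adjusted p of 0.065.

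In *Adamtsl3*-negative fibroblasts, 0 of 11489 genes were called between genotypes with edgeR (0%), with 463 at an unadjusted p below 0.05, and DESeq2 called 1, *Cntnap5a*. The difference of the genotype effect between the *Adamtsl3*-positive and *Adamtsl3*-negative nuclei was tested over 11425 genes by an interaction term, and 0 were called (0%), with 566 at an unadjusted p below 0.05 and 0 by DESeq2. The smallest adjusted p, 0.19 with edgeR, was shared by *Nrg3*, *Col8a1* and *Bche*. *Col8a1* was at 356, 368, 230 and 479 CPM in control and 368, 445, 324 and 426 CPM in cKO libraries of *Adamtsl3*-positive nuclei, and at 142, 205, 97.7 and 173 CPM against 70.1, 80.1, 89.5 and 75.9 CPM in *Adamtsl3*-negative nuclei. Its genotypes overlapped in the first group and were apart in the second, with a difference of the log2 fold changes of 1.05 ± 0.20. *Bche*, butyrylcholinesterase, was at 240, 198, 378 and 294 CPM in control and 108, 166, 201 and 215 CPM in cKO libraries of *Adamtsl3*-positive nuclei, and between 6.95 and 21.1 CPM in *Adamtsl3*-negative ones (-1.60 ± 0.31). *Nrg3*, a neuregulin, was at 0, 10.2, 8.51 and 10.2 CPM in control and 17.5, 40.6, 46.9 and 93.0 CPM in cKO libraries of *Adamtsl3*-positive nuclei, without overlap, and the interaction was 3.56 ± 0.65. *Cntnap2*, *Car10*, *Igfbp3*, *Dok6*, *Mx2*, *Fgf14* and *Tent5d* were next by p, with adjusted p-values from 0.22 to 0.52 in edgeR. With 4 libraries a genotype and 54 to 127 nuclei in each, genotype differences smaller than the spread between libraries were not detectable.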

How the data were processed

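Nuclei of ONs were captured with droplet 3' chemistry (10x Genomics). The authors deposited raw UMI counts of every barcode for each of 8 libraries. Per the labels and the submitters' processing notes, the counts were made with Cell Ranger 7.0.0 against GRCm39. The depth of a library and of its nuclei sets the precision, and intervals cover counting error only.

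From these counts, barcodes were selected by the stated rule. Doublets were not called. Instead, nuclei with 2 or more UMIs of the endothelial, mural, myeloid, T cell, neuron or Schwann cell marker list were left out as an alternative. Leaving out nuclei over 20000 UMIs was another. The members, gene lists and tests were chosen with earlier results of these data known. UMI counts were summed per library and group. Sums of at least 10 nuclei and 1000 counts were tested with edgeR 4.0.16 in R 4.3.3. The fits used TMM scaling, filterByExpr and a two-sided quasi-likelihood F test, with Benjamini-Hochberg adjustment over all genes tested. The SE given for an edgeR log2 fold change is its size divided by the square root of its F statistic. The library was a block within libraries, since both sums of a pair come from the same nerves, and no block was used between genotypes. Levels given only as a description also used smaller sums. Genes were called at adjusted p below 0.05 and a log2 fold change beyond 0.5 in size. DESeq2 1.42.0, no filter, thinning to 1000 UMIs, UMI-matched nuclei, other thresholds, each genotype alone and leaving out each library were alternatives. Shares and single levels were compared with exact permutation tests (scipy 1.17.1). The genes that chose the nuclei got no test. Scripts were tested on simulated data.

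Named genes were, within libraries, the 12 largest increases and 8 largest decreases among called genes with the same direction in every library and at least 20 CPM in the higher group (5 and 5 for the other 2 fibroblast groups), leaving out rule genes, mitochondrial genes and predicted or clone names; between genotypes, the 5 smallest adjusted p-values in each direction; and members of the gene lists. Libraries are pools of nerves, so p-values between genotypes measure the spread of levels between pools. Those within libraries and of the interaction measure how much the within-pool difference varied between pools. A library's mice cannot be told apart.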

Additional observations from a re-analysis of the deposited data

Results flagged for a closer look

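In groups of 4 libraries, 10 levels of named genes in *Adamtsl3*-positive fibroblasts had 1 library far from the other 3. Such a flag arises by chance in about 1 of 20 groups, and 72 groups were examined. Among the control libraries, *Slc47a2* was lowest in replicate 3, at 112 CPM with the next at 141 CPM. *Hgf* was highest in replicate 4, at 38.7 CPM with the next at 27.6 CPM, and *Vsx1* in replicate 2, at 78.4 CPM with the next at 55.3 CPM. *Tnc*, *Postn* and *Pla1a* were at 4.86, 3.65 and 2.43 CPM in control replicate 3 and at 0 in the other 3 control libraries. Any count beside 3 zeros raises the flag, so the chance rate above does not apply to them. That replicate also had the deepest control sum, 822450 UMIs against 293234 to 490425. *Prl* was at 715 CPM in control replicate 3, with the next library at 58.0 CPM. Among the libraries labelled cKO, *Scara5* was at 8.82 CPM in replicate 11, with the next at 1.12 CPM, and *Prl* at 37.1 CPM in the same replicate, with the next at 5.81 CPM. *Samd5* was lowest in replicate 12, at 5.59 CPM with the next at 14.6 CPM. Of these 9 genes, all except *Prl* had been named for a large difference from the *Adamtsl3*-negative fibroblasts, and lay apart from them in every library.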

How the results depend on the processing

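The call of 2403 genes between *Adamtsl3*-positive and *Adamtsl3*-negative fibroblasts became 2300 without the library block that pairs the sums, 2529 with DESeq2, 3354 without a filter on low counts, 1967 with UMI-matched nuclei, 2037 and 2038 in control and cKO libraries alone, and 2296 to 2465 with 1 library left out. Thinning to 1000 UMIs left 1010 calls there, 893 against *Ranbp3l*-positive and 485 against double-negative nuclei, with fewer genes tested. Without a filter the last comparison gave 3155 calls. *Plxna4* reversed in control libraries alone, to -0.024 (edgeR adjusted p = 0.96). Of 317 described genes, 15 lost their call without the block and none reversed. In control libraries alone 24 of 313 lost their call and 1 reversed, and in cKO libraries alone 18 of 314 lost their call and none reversed. Library totals as the only scaling moved the median log2 fold change to -0.09. The difference in shares between genotypes was -0.032 percentage points over all barcodes, -0.64 without nuclei with other-type markers, and -2.52 to 2.05 with 1 library left out. For OLs, leaving out 1 library gave differences of 78.9 to 112 CPM for *Piezo2* and 15.4 to 20.6 CPM for *Olig2*. Between genotypes, *Adamtsl3*-positive nuclei gave 3 calls with DESeq2, 56 without a filter, 2 without nuclei over 20000 UMIs, 3 with 1 UMI as threshold (*Mx1*, *Chsy3*, *Gm47283*) and 0 to 35 with 1 library left out (35 without control replicate 3, 2 without control replicate 4, 2 without cKO replicate 10), *Adamtsl3*-negative nuclei 1 with DESeq2 and 70 without a filter, and the interaction 50 without a filter and 0 to 7 with 1 library left out (7 without control replicate 3, 2 without cKO replicate 10). The causes were not tested. No paired analysis was possible because the genotypes share no replicate numbers. Sums of 54 to 127 nuclei limit what low genes can show.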
